A study of Mus musculus with 4 samples.

Results

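The little-studied liver genes described here are Cib3, Mmd2, Tmem250-ps, C730036E19Rik, Stk38, Slc41a2 and Rgs16, 7 of the 46603 genes counted. They were chosen from the top of the list when genes were ordered by the p-value of the comparison between the groups, so their group differences are a description and no p-value is given for them. In that order they took places 2, 3, 4, 7, 8, 10 and 13 among the 13001 genes with enough counts to be tested. The lowest place belonged to Mmd2, and the next gene down, Ptgr2 at place 14 and outside the choice, had 79.8 and 82.0 CPM (counts scaled to a common library size) in the control mice against 41.0 and 45.7 CPM in the others. All 7 passed the filter on low counts. Relative to the controls, the mice labelled HuR hKO had more of 4 and less of 3. The standard errors (SE) beside the fold changes of the 7 come from the comparison that chose them, so they are no separate measure of precision.

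Total liver RNA was sequenced from 4 male mice, 2 of them controls (mice 1 and 2) and 2 given the label HuR hKO, which stands for hepatocyte-specific HuR knockout (mice 3 and 4). Every mouse carried the HuRflox/flox allele on the C57BL/6 J background, which loses the gene only where Cre recombinase acts. By the labels, the HuR hKO mice had received an adeno-associated virus (AAV8) that drives Cre from the thyroxine-binding globulin promoter through the tail vein, and the controls the same type of virus with GFP, so the cargo and supplier of the virus went with the group and cannot be told apart from it. All 4 had eaten a Western diet with 42% of kcal from fat and 0.1% cholesterol, with a drink holding 23.1 g/L fructose and 18.9 g/L glucose (WDSW), for 4 weeks, and their age is not given in the sources used here. That promoter acts in hepatocytes, so the other liver cells keep HuR, and in whole-liver RNA a change in the number of cells of a type cannot be told apart from a change in RNA per cell.

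HuR, encoded by Elavl1, is an RNA-binding protein that recognises AU- and U-rich stretches, often in the 3′ UTR, and is known for changing the stability and translation of the RNAs it binds. The 7 genes belong to unrelated families. Cib3 is a small EF-hand calcium-binding protein. Rgs16 speeds up GTP hydrolysis by G protein alpha subunits of the Gi and Gq classes and thereby shortens signaling from their receptors. Mmd2 is a Golgi membrane protein of the PAQR family, Slc41a2 is a magnesium transporter, and Stk38 (NDR1) is a kinase next to the Hippo pathway. Tmem250-ps and C730036E19Rik are listed as noncoding RNAs in the annotation used for the coordinates.

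The 4 libraries held between 13032095 and 19715577 counts on genes, mouse 4 having 1.51 times the counts of mouse 1. The label check went against the labels: Elavl1, the gene to be deleted, had 377 and 347 counts in the controls and 541 and 648 in the libraries labelled HuR hKO, or 28.4 and 25.9 CPM against 37.7 and 34.4 CPM, a log2 fold change of 0.41 ± 0.14 (SE, n = 2 mice a group; unadjusted p = 0.016 and adjusted p = 0.545 in edgeR's quasi-likelihood test). The study itself reports less HuR mRNA and protein in livers of its HuR hKO mice, the direction that the labels give. Deleted exons cannot be told from kept ones in gene counts, and directions below are therefore those of libraries labelled HuR hKO. The 10 hepatocyte markers summed to between 88177 and 98379 CPM in the 4 livers, as the tissue label says. Of 67 tested markers of liver and blood cell types and of pancreas, 0 passed the study's threshold (fold of at least 1.8 and unadjusted p under 0.05) in edgeR, DESeq2 or limma-voom, although 8 had an unadjusted p under 0.05 in edgeR (7.43% of all tested genes did), and DESeq2 alone gave 1, Hbb-bs, an adjusted p under 0.05 (0.654% of all tested genes). The summed B cell markers were 7.38 and 45.1 CPM in the controls and 23.2 and 37.7 CPM in the others, those of erythroid cells 367 and 455 against 494 and 718 CPM, and those of Kupffer cells and macrophages 229 and 237 against 265 and 249 CPM. Those of endothelial cells were 267 and 247 against 315 and 276 CPM, those of stellate cells and fibroblasts 244 and 229 against 248 and 314 CPM, and those of cholangiocytes 78.8 and 44.6 against 54.3 and 64.4 CPM. The sums of Kupffer, endothelial, stellate and erythroid markers were thus higher in both livers labelled HuR hKO than in both controls, and their part in the levels of the 7 genes was not tested.

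Over all tested genes, 157 were higher and 119 lower past the study's threshold, which is 1.21% and 0.915% of them. Groups of 2 that did not overlap were common: 19.3% of the tested genes were higher in both mice labelled HuR hKO than in both controls, and 18.8% lower in both. An adjusted p under 0.05 was reached by 0.0231%, an unadjusted one by 7.43%, and 50.3% had a fitted fold change above 0. In DESeq2 these shares were 0.823% higher past the threshold, 4.42% with an unadjusted and 0.654% with an adjusted p under 0.05, and in limma-voom 1.22%, 7.55% and 0.0154%. The edgeR shares are the background of the 7 genes, all of which had groups that did not overlap, but since that contrast chose them nothing is read from the comparison. With 2 mice against 2, an exact permutation test of a single gene cannot give a p below 0.333.

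Cib3 had only a few counts in the control livers and more in both livers labelled HuR hKO. Cib3 (ENSMUSG00000074240, chr8:72204335-72212837 on the minus strand of GRCm38, 4 exon blocks) belongs to the calcium and integrin-binding proteins, and with its relative Cib2 it is known as a partner of the TMC channels of inner ear hair cells. Mouse 1 and mouse 2 each had 4 counts, mouse 3 had 64 and mouse 4 had 98. The 95% Poisson interval of a count of 4 runs from 1.09 to 10.2, and those of the other counts from 49.3 to 81.7 and from 79.6 to 119, so the control level is loosely fixed. The intervals take the values as read counts, and if they are rounded RSEM estimates (how they were made is not given in the sources used here), the intervals do not hold the error of that estimate. As CPM the levels were 0.301 and 0.299 in the controls and 4.46 and 5.20 in the libraries labelled HuR hKO. The group means of CPM were 16.1-fold apart. The fitted log2 fold change was 3.98 ± 0.40 (SE), and with a prior count of 5 in place of the default it shrank to 3.03.

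Mmd2 was likewise low in the controls and several times higher in both other livers. Mmd2 (ENSMUSG00000039533, chr5:142562358-142608800, minus strand, 8 exon blocks) encodes a Golgi protein of the PAQR family, the family that also holds the adiponectin receptors. It had 16 and 22 counts in mice 1 and 2 and 88 and 111 in mice 3 and 4. In CPM this was 1.20 and 1.64 against 6.14 and 5.89, with a log2 fold change of 2.07 ± 0.29 (SE). The 2 controls differed from each other by 36.4%, more than the controls of any other of the 7, and the fold change was 1.85 without control mouse 1 and 2.31 without control mouse 2.

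Rgs16 was the most abundant of the 7 and higher in both livers labelled HuR hKO. Rgs16 (ENSMUSG00000026475, chr1:153740349-153745468, plus strand, 5 exon blocks) is known in liver as a gene that responds to carbohydrate through the transcription factor ChREBP. It had 3536 and 3158 counts in the controls and 7725 and 11613 in the others. The levels were 266 and 236 CPM against 539 and 617 CPM, or 2.30-fold (log2 1.20 ± 0.15, SE). The 2 controls differed by 12.9% and the other 2 mice by 14.4%.

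Stk38 was higher in both livers labelled HuR hKO. Stk38 (ENSMUSG00000024006, chr17:28970880-29007995, minus strand, 12 exon blocks in 25 annotated transcripts) encodes a serine/threonine kinase that MOB1 proteins and the MST kinases activate. Its counts were 662 and 649 in the controls and 1393 and 1835 in the livers labelled HuR hKO, and its levels 49.8 and 48.5 CPM against 97.2 and 97.4 CPM. The group means were 1.98-fold apart (log2 0.99 ± 0.12, SE), the 2 controls 2.82% and the other 2 mice 0.245%. Stretches of 28 to 147 bases of its transcripts match those of 478 other genes at 95% identity or more, 230 of them in the opposite and 248 in the same orientation, so reads from those stretches could be assigned in several ways. By the longest match of each gene, 200 of the 230 and 211 of the 248 lay within bases 374 to 460 of 1 transcript, ENSMUST00000129094.2. Most matches thus concern a short part of the 25 transcripts.

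Tmem250-ps was the most abundant of the 3 genes that were lower. Tmem250-ps (ENSMUSG00000087679, chr2:26136814-26140521, minus strand, 2 exon blocks) is a lincRNA in GENCODE and protein_coding in RefSeq, and its name marks it as a pseudogene of Tmem250. It had 1018 and 1047 counts in the controls and 436 and 484 in the livers labelled HuR hKO. The levels were 76.6 and 78.2 CPM against 30.4 and 25.7 CPM, 2.76-fold lower (log2 -1.47 ± 0.14, SE). The lincRNA 1810012K08Rik lies on the other strand within it, shares 369 bases, and had 7, 3, 1 and 0 counts in mice 1 to 4. Whether the counting used strand is not given in the sources used here, so reads of the pair cannot be told apart.

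C730036E19Rik (ENSMUSG00000102095, chr1:151138034-151142345, plus strand, 5 exon blocks) carries in RefSeq the synonym lncLSTR, a liver-enriched noncoding RNA studied for its link to blood triglycerides. It had 161 and 159 counts in the controls and 49 and 66 in the libraries labelled HuR hKO. The levels were 12.1 and 11.9 CPM against 3.42 and 3.50 CPM, 3.47-fold lower (log2 -1.79 ± 0.20, SE), and mice of a group were no more than 2.50% apart. The RefSeq model reaches 1750 bases further downstream than the model in GENCODE, so reads there may not have been counted.

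Slc41a2 was lower in both livers labelled HuR hKO. Slc41a2 (ENSMUSG00000034591, chr10:83230848-83337882, minus strand, 14 exon blocks) had 276 and 247 counts in the controls and 121 and 163 in the others. The levels were 20.8 and 18.4 CPM against 8.44 and 8.65 CPM, 2.29-fold lower (log2 -1.20 ± 0.16, SE). The 2 controls differed by 12.6% and the other 2 mice by 2.51%.

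**Figure D1:**
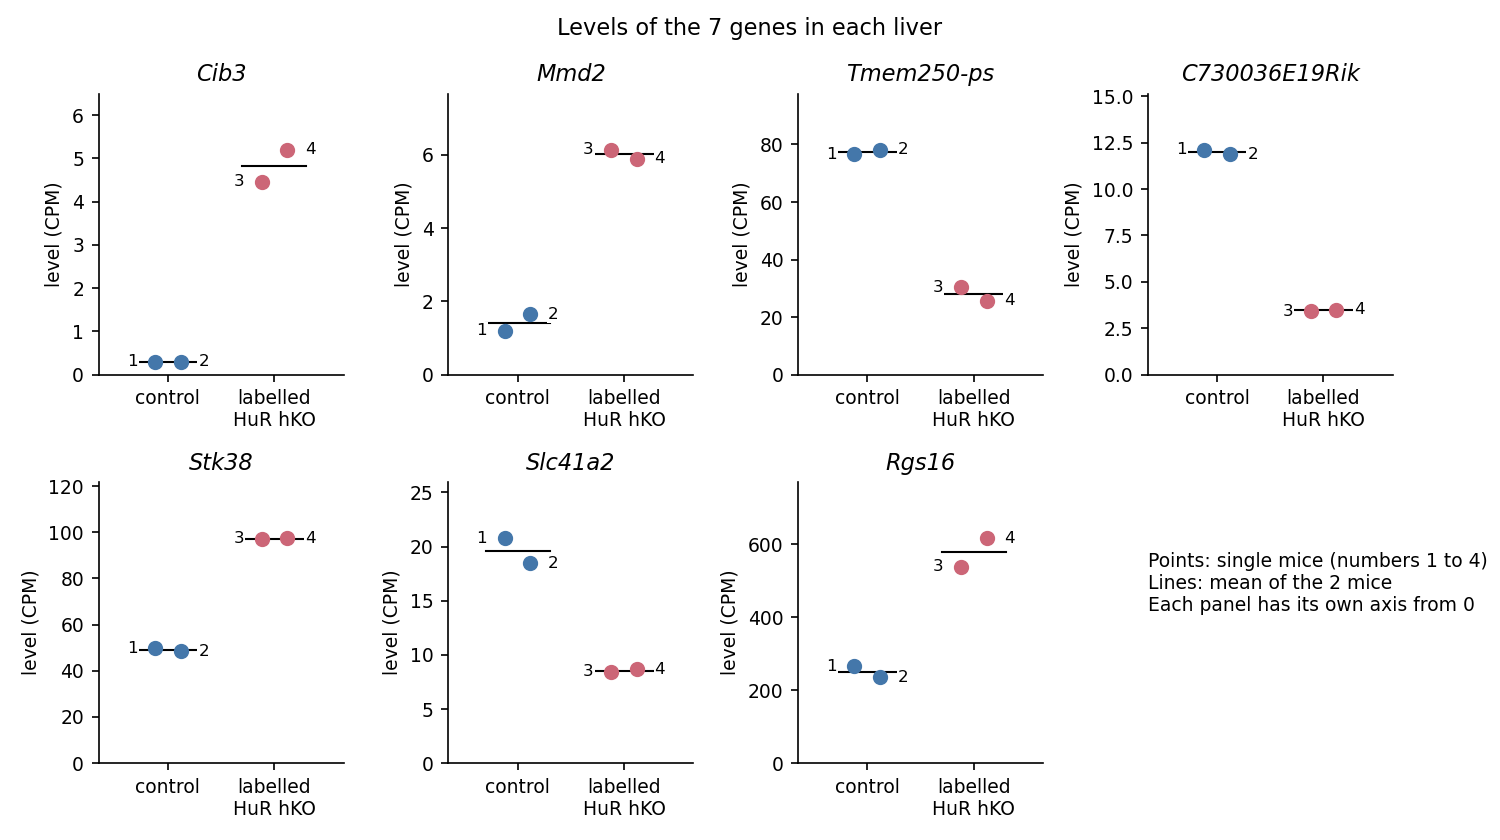
Level of each of the 7 genes in CPM (counts scaled to library size, vertical axis from 0, a separate scale in each panel) in the 2 control mice (blue, mice 1 and 2) and the 2 mice labelled HuR hKO (red, mice 3 and 4), with the mean of each pair as a line. The pairs do not overlap in any panel, as the choice of the genes would give, and the widest control pair in relative terms is that of Mmd2 at 1.20 and 1.64 CPM.

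Per length of annotated exon the 7 genes spanned nearly the whole range of the liver's genes. Levels as RPKM, which is CPM divided by the kilobases of annotated exon, were 107 for Rgs16, 31.2 for Tmem250-ps, 10.9 for C730036E19Rik, 4.25 for Stk38, 3.67 for Slc41a2, 0.274 for Mmd2 and 0.149 for Cib3 as means of the 2 controls. In that order each gene's 2 control values lay apart from those of its neighbours, but the order of the last 2 rests on the 4 Cib3 counts of each control. The order also depends on the annotation, because the length joins the exons of all transcripts of a gene. It was 11560 bases over 25 transcripts for Stk38 and 1102 bases over 1 for C730036E19Rik, so the RPKM of Stk38 is low for that reason too. Rgs16 stood above 96.1% of the tested genes on this scale and Cib3 above 2.52%. In the livers labelled HuR hKO the order changed in the middle and at the end: Rgs16 at 247 RPKM and Tmem250-ps at 11.3 still led, followed by Stk38 at 8.42, C730036E19Rik at 3.14, Cib3 at 2.40, Slc41a2 at 1.60 and Mmd2 at 1.16. Cib3 now stood above 44.1% of the tested genes, Mmd2 above 28.2% after 6.78% in the controls, and Slc41a2 above 34.9% after 54.0%. C730036E19Rik went from above 76.8% to above 50.8%, Tmem250-ps from 89.5% to 77.0% and Stk38 from 57.6% to 71.9%.

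**Figure D2:**
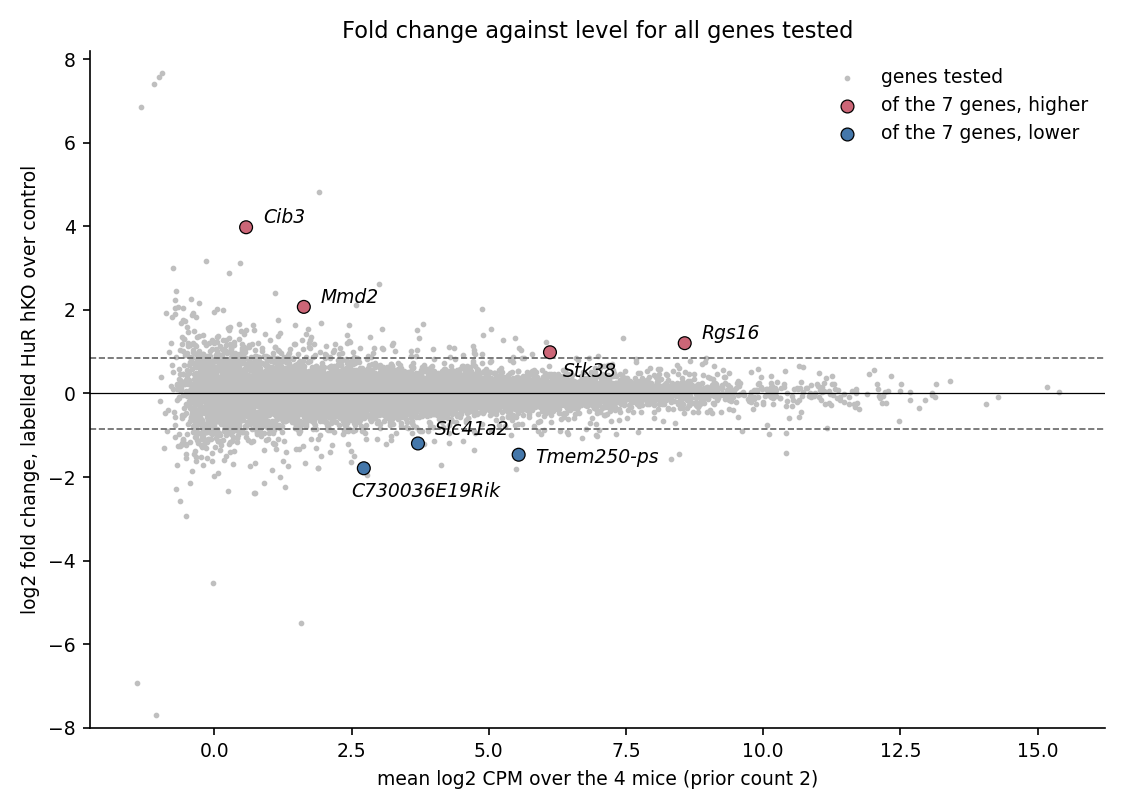
Log2 fold change (libraries labelled HuR hKO over control, vertical axis) against mean log2 CPM over the 4 mice (horizontal axis) for all 13001 tested genes in grey, with the 7 genes in colour and dashed lines at a fold of 1.8. Cib3 and Mmd2, at the left among genes of low count, have the largest fold changes of the 7 (3.98 and 2.07), and Rgs16 and Stk38 lie to the right among genes of higher count with 1.20 and 0.99, all 7 having been chosen on this contrast.

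Sequences of Slc41a2 and Rgs16 are shown for what a study of HuR would look at first, the AUUUA pentamer (ATTTA in DNA letters) of AU-rich 3′ UTRs, with sites counted on the sense strand and overlapping matches counted each. The 3′ UTR of Slc41a2 (2717 bases in its longest coding transcript in GENCODE M21) held 10, or 3.68 per kb, a density above that of 89.6% of 11884 tested genes, whose median was 1.22 per kb and of which 70.6% held at least 1. That of Rgs16 (1613 bases) held 4, or 2.48 per kb, above 76.0% of genes, and that of Mmd2 (2380 bases) held 3 and that of Stk38 (1666 bases) 2, both near the median at 1.26 and 1.20 per kb. The most closely spaced sites of Slc41a2 (chr10:83232407-83232431, minus strand) and the 3 sites or overlapping pairs of Rgs16 (chr1:153744201-153744225, chr1:153745171-153745195 and chr1:153745328-153745352, plus strand) are given from the GENCODE M21 transcripts (GRCm38), in DNA letters, each with 10 bases on either side of its pentamer or, for a pair, of the first pentamer, and with the pentamers in capitals:
Slc41a2 sites 4 and 5: gccgttaaatATTTAataATTTAaa
Rgs16 site 1: gagagcagttATTTAagggccagac
Rgs16 site 2: tgctattgttATTTAttgtggtttg
Rgs16 sites 3 and 4: ctgtgttaatATTTATTTAttgtta
Slc41a2 was lower and Rgs16 higher in the livers labelled HuR hKO, so the 2 genes with the densest pentamers lay on opposite sides.

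The U-rich pattern TTTNTTT (sense strand, N any base, overlapping matches counted each, sharing bases with the pentamer where they meet) sorted the genes differently. Tmem250-ps had 25 matches over its whole transcript of 2483 bases, 10.1 per kb and above 97.2% of 505 tested long noncoding RNAs, and no ATTTA. C730036E19Rik had neither in 1102 bases, although 80.6% of those noncoding RNAs held ATTTA and 73.7% held TTTNTTT. Both genes were lower. The 3′ UTRs of Slc41a2 and Mmd2 held 15 and 13 matches, 5.52 and 5.46 per kb against a median of 1.63, while Rgs16 held 2 and Stk38 0. Cib3 has no annotated 3′ UTR of 50 bases or more in GENCODE M21, so it was not searched. A match is a description of letters and not of binding.

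**Figure D3:**
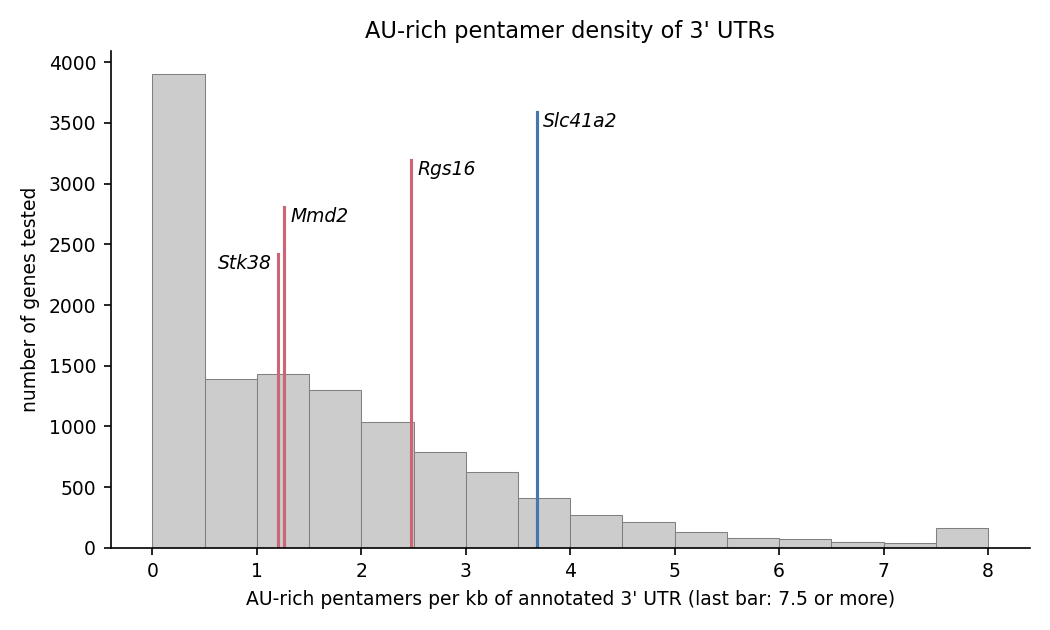
Number of tested genes (vertical axis) by the density of the AU-rich pentamer in their annotated 3′ UTR (pentamers per kb, horizontal axis), with lines for the 4 of the 7 genes that have such a 3′ UTR, red where higher and blue where lower in the livers labelled HuR hKO. Stk38 and Mmd2 lie near the median of 1.22 per kb, Rgs16 at 2.48 and Slc41a2 at 3.68.

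The promoters of C730036E19Rik and Rgs16, the 2 of the 7 on the same chromosome, are shown because a neighbour of the first moved with it and because the second holds one of the motifs searched. They come from RefSeq (GRCm38.p6), upstream of the gene start and cut to bases outside annotated exons, 5′ to 3′, with the motif in capitals. The stretch before C730036E19Rik is chr1:151137784-151138033 and that before Rgs16 is chr1:153740103-153740348, both on the plus strand:
C730036E19Rik: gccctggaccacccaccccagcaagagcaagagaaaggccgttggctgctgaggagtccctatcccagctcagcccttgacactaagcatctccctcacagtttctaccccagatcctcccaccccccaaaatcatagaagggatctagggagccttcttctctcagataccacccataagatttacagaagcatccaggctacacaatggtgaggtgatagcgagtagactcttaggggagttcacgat
Rgs16: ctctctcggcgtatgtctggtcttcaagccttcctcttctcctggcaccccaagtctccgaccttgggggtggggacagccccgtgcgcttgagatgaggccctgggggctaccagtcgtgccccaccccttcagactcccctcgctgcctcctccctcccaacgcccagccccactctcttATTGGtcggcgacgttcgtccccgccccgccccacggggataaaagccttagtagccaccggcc
The capitals in Rgs16 are ATTGG, which is CCAAT on the minus strand. The motifs searched were looked for on both strands in the windows of all 7 (250 bases before to 50 after the start): the E-box CACGTG, the TATA box TATAAA and CCAAT, none of which overlaps another here. CCAAT was present for Rgs16 and Mmd2 and for 37.4% of all 32851 promoters of the table. CACGTG, in 7.15% of all promoters, and TATAAA, in 13.6%, were in none of the 7 windows, which says only that these letters are not there.

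Relatives of the 7 genes, here the genes of their families and of pathways around them, were counted over lists. Over 12 lists of family members and of pathways around them, with the 7 left out, 150 genes were tested, 7 were higher and 3 lower past the study's threshold (1.21% and 0.915% of all tested genes were), and their median log2 fold change was 0.01 against 0.00 for all tested genes. With edgeR's quasi-likelihood test and Benjamini-Hochberg adjustment 0 of the 150 had an adjusted p under 0.05 and 22 an unadjusted one, against 7.43% of all tested genes. Of the 22, the carbohydrate list held 7, the male-biased list 5 and the female-biased list 4, while each family list held between 0 and 2. DESeq2 gave 7 of them an adjusted p under 0.05, against 0.654% of all tested genes, and limma-voom gave 0. Those from DESeq2 were 2 carbohydrate response, 3 female-biased and 2 male-biased genes, and none was in a family list.

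In the families of the genes that were higher, the relatives of Cib3 had log2 fold changes of either sign. Of 8 tested CIB proteins and channel partners, 0 passed the threshold in edgeR, DESeq2 or limma-voom, 0 had an unadjusted p under 0.05 in any of the 3, and the log2 fold changes ran from -0.28 to 0.18. Cib1, which binds the integrin alpha IIb chain, had 48.8 and 64.2 CPM in the controls and 62.4 and 65.9 CPM in the others, and Cib2 6.40 and 6.72 against 5.72 and 8.60 CPM. For both of these the groups overlapped. Cib4, Tmc1, Tmc2 and Lhfpl5, the last 3 being parts of the hair cell channel, had 0 counts in all 4 livers, where at most 3 counts could have been missed, a level of 0.159 to 0.226 CPM depending on the library. The 8 tested small EF-hand sensors, with calmodulin and the calcineurin B subunit among them, had a median of 0.13, with 0 past the threshold and 0 with an unadjusted p under 0.05 in the 3 tools.

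The PAQR family of Mmd2 gave 0 of 7 past the threshold in the 3 tools, with a median of -0.03. Its closest relative Mmd had 148 and 168 CPM in the controls and 124 and 139 CPM in the livers labelled HuR hKO (log2 -0.27 ± 0.14, SE), so it lay on the other side of 0 from Mmd2. The direction for Mmd turned without scaling for library size (0.05). The adiponectin receptors were near 0, Adipor1 at 0.05 and Adipor2 at 0.05. Paqr3, a Golgi protein that holds Raf kinases, had 7.30 and 5.002 against 4.40 and 2.97 CPM (log2 -0.75 ± 0.30, SE; adjusted p = 0.632 in edgeR's quasi-likelihood test), and it passed the threshold only when control mouse 2 (-0.999) or mouse 3 (-1.06) was left out.

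The partners of Stk38 gave 0 of 29 past the threshold in the 3 tools, with a median of -0.08. Of the 29, 8 were above 0, where 50.3% of all tested genes were, and 1, Amotl2, had an unadjusted p under 0.05 in edgeR, where 7.43% did. Stk38l (NDR2), its paralog, had 17.6 and 14.9 CPM in the controls and 20.022 and 10.3 CPM in the others, and its groups overlapped. The activating MOB1 proteins were 40.3 and 31.3 against 37.7 and 32.3 CPM for Mob1a and 45.9 and 43.3 against 41.2 and 38.1 CPM for Mob1b. Lats1 and Yap1, kinase and coactivator of the Hippo pathway, had log2 fold changes of 0.01 and -0.04. Amotl2, a target gene of that pathway, had a log2 fold change of -0.30 that turned to 0.02 without scaling for library size.

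Among the RGS proteins next to Rgs16, 0 of 8 passed the threshold in the 3 tools and 0 had an unadjusted p under 0.05, with a median of -0.03. Rgs5, a marker of pericytes and stellate cells, had 25.1 and 22.0 CPM in the controls and 29.0 and 26.4 CPM in the livers labelled HuR hKO, and Rgs2 3.39 and 2.69 against 2.65 and 2.81 CPM. Rgs3 varied most between the controls, with 28.7 CPM in mouse 1 and 7.17 CPM in mouse 2 against 14.4 and 9.98 CPM. Its log2 fold change was -0.56 with all mice, 0.74 without mouse 1 and -1.24 without mouse 2, where it passed the threshold.

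Of the G protein alpha subunits, on which RGS proteins act, 1 of 11 was higher and 1 lower past the threshold, which 1.21% and 0.915% of all tested genes were, and 2 had an unadjusted p under 0.05 (7.43% of all). Gnai1, of the Gi class, had 5.19 and 3.73 CPM in the controls and 1.47 and 2.07 CPM in the others (log2 -1.32 ± 0.33, SE; adjusted p = 0.374 in edgeR's quasi-likelihood test). Gnai2 and Gnai3, the more abundant subunits of that class, had log2 fold changes of 0.16 and 0.14. Gna14, of the Gq class, had 3.91 and 4.18 against 6.00 and 9.98 CPM (log2 0.99 ± 0.29, SE; adjusted p = 0.451 in the same test), and without mouse 4 it fell short of the threshold at 0.57.

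Slc41a2 had one relative past the threshold, in the other direction. Slc41a3, a paralog in the same family, had 2.56 and 3.58 CPM in the controls and 5.93 and 6.37 CPM in the livers labelled HuR hKO (log2 1.00 ± 0.26, SE; adjusted p = 0.409 in edgeR's quasi-likelihood test), and at 0.77 it missed the threshold without control mouse 1. Slc41a1 had 5.57 and 8.51 against 7.95 and 6.90 CPM, with groups that overlapped. Slc41a3 was the 1 of 12 tested magnesium transport genes higher past the threshold (1.21% of all tested genes), and the list's median was 0.01. Trpm7, a channel kinase for magnesium, was at -0.06 and Magt1 at -0.21.

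Pathways that liver physiology ties to Rgs16 were counted in the same way. The list of 15 carbohydrate response genes holds the ChREBP gene Mlxipl as well as targets of ChREBP. Of these 15, 1 was higher past the threshold (1.21% of all tested genes), 7 had an unadjusted p under 0.05, 12 were above 0, and the median log2 fold change was 0.40. Over all tested genes 7.43% had an unadjusted p under 0.05, 50.3% were above 0 and the median was 0.00. The one past the threshold was Fgf21, a liver hormone, with 0.978 and 1.79 CPM in the controls and 3.28 and 2.71 CPM in the others (log2 1.10 ± 0.40, SE; adjusted p = 0.574 in edgeR's quasi-likelihood test). It missed the threshold in DESeq2 and without control mouse 1 (0.72) or mouse 3 (0.94). Acly and Fasn, enzymes of fatty acid synthesis, were just short of a fold of 1.8 at log2 0.81 and 0.85, with 153 and 155 against 264 and 277 CPM for Acly and 388 and 353 against 707 and 627 CPM for Fasn, and DESeq2 gave both an adjusted p under 0.05 (0.654% of all tested genes). Fasn crossed that line in limma-voom (0.85), with offsets for GC content and length (0.86), and without mouse 1 (0.91) or mouse 4 (0.93), and both did without scaling for library size (1.13 and 1.15). Khk and Pklr, enzymes of fructose and glucose breakdown, were at 0.50 and 0.44, and Mlxipl, which encodes ChREBP, at -0.16.

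The clock list gave 0 of 18 past the threshold and 0 with an unadjusted p under 0.05 in the 3 tools, with a median of 0.01. Dbp and Nr1d1, clock outputs whose levels swing over the day, had 197 and 259 against 275 and 266 CPM and 90.8 and 98.7 against 130 and 84.9 CPM. The fasting list had 2 of 14 higher past the threshold in edgeR, against 1.21% of all tested genes, and 1 in DESeq2, against 0.823%. The 2 were Fgf21 and Cyp4a14, a fatty acid hydroxylase with 158 and 71.2 against 255 and 321 CPM (log2 1.33 ± 0.32, SE; adjusted p = 0.352 in edgeR's quasi-likelihood test), and the list's median was 0.13. Cyp4a14 stayed past the threshold without mouse 2 at 0.87 and without mouse 1 at 2.00.

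Lists of genes that differ between the sexes in mouse liver were also counted, all 4 mice being male. Of 16 listed female-biased genes only 7 had enough counts to be tested, so neither the count nor the median below describes the whole list. Of the 7 tested, 4 had an unadjusted p under 0.05 (7.43% of all tested genes) and 3 were higher past the threshold (1.21% of all), all cytochromes P450: Cyp2a4 with 0.828 and 0.523 against 28.1 and 10.6 CPM, Cyp2b13 with 0.677 and 1.05 against 3.91 and 5.20 CPM and Cyp2b9 with 6.47 and 8.88 against 16.7 and 27.2 CPM. Cyp2a4 had 11 and 7 counts in the controls against 403 and 200 and Cyp2b13 had 9 and 14 against 56 and 98, so both owe their place in the test largely to the libraries labelled HuR hKO, and neither had a value with at least 10 counts in every library. Of 14 male-biased genes, all tested, 5 had an unadjusted p under 0.05 (7.43% of all) and 2 were lower past the threshold (0.915% of all), Ugt2b38 with 13.0 and 13.4 against 7.26 and 4.25 CPM and C6 with 209 and 145 against 99.6 and 79.1 CPM. C6 lost the call without mouse 1 (-0.71) or mouse 4 (-0.83) and without scaling (-0.69). The medians of the tested genes were 0.74 and -0.23. DESeq2 gave all 5 of these genes an adjusted p under 0.05 (0.654% of all tested genes), and edgeR and limma-voom gave none of the 2 lists one. The levels of the 7 genes differ between the same 2 pairs of mice, and whether they go with these lists was not tested.

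**Figure D4:**
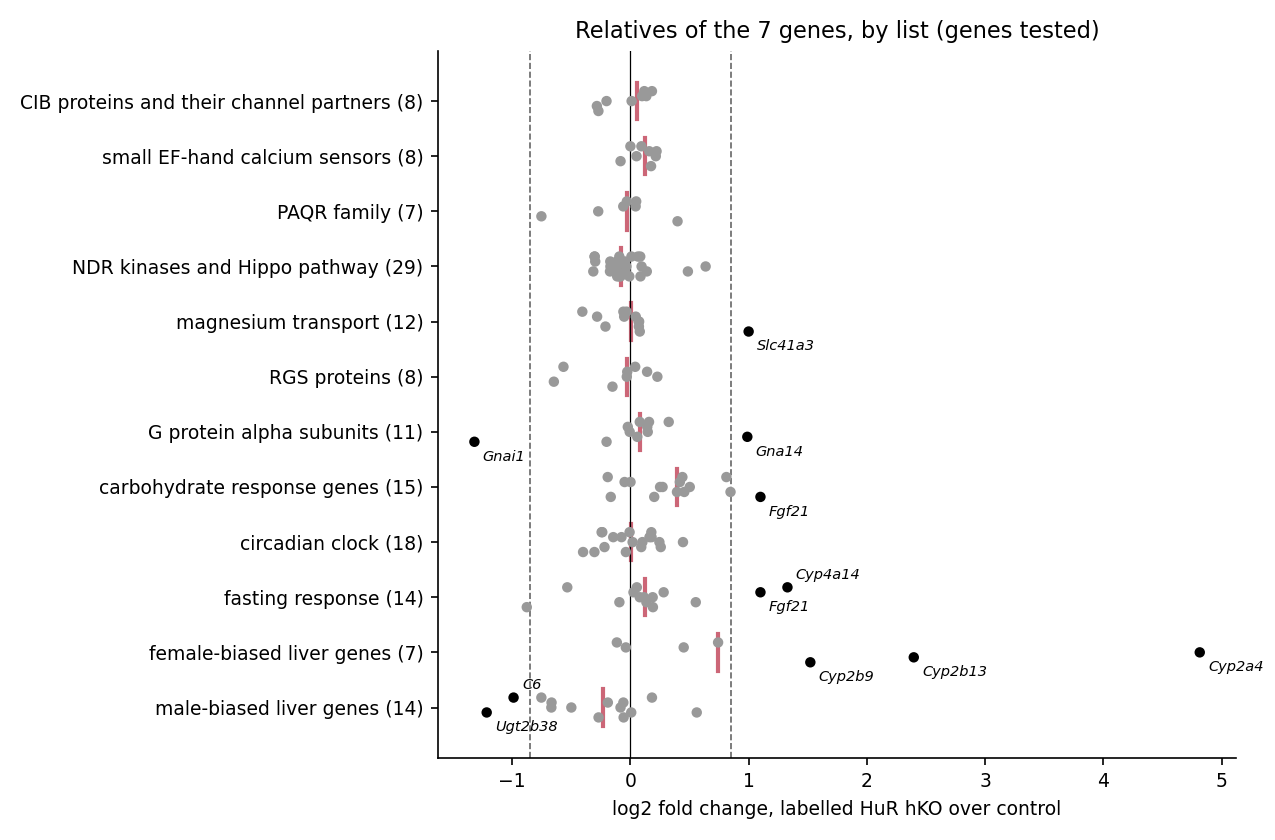
Log2 fold change (libraries labelled HuR hKO over control, horizontal axis) of every tested gene in 12 lists around the 7 genes, which are left out, with the number tested in parentheses, the list's median as a red bar and dashed lines at a fold of 1.8. Black points passed the study's threshold. The family lists have medians between -0.08 and 0.13, with Slc41a3 at 1.00, Gna14 at 0.99 and Gnai1 at -1.32 outside the lines, and the carbohydrate and female-biased lists have medians of 0.40 and 0.74, the last over the 7 of 16 listed genes that were tested.

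The genes next to the 7 on the chromosomes were counted in the same way. Up to 3 tested genes on each side of each gene gave 42 neighbours, of which 1 was higher and 1 lower past the study's threshold (1.21% and 0.915% of all tested genes), with a median log2 fold change of 0.00. In edgeR's quasi-likelihood test 0 of the 42 had an adjusted p under 0.05 and 4 an unadjusted one (7.43% over all tested genes), and DESeq2 and limma-voom also gave 0 an adjusted p under 0.05. None of the neighbours of Cib3, Mmd2, Tmem250-ps, Slc41a2 or Rgs16 passed the threshold, the tool being edgeR. For Cib3 the nearest tested genes were Fam32a, 6.89 kb away, at 0.25, and Rab8a, 20.4 kb away, at 0.12.

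The one neighbour that was lower lay directly upstream of C730036E19Rik. Gm8941 (chr1:151136507-151137780, plus strand), a processed pseudogene, ends 0.254 kb before the lincRNA starts, and the promoter sequence printed for the lincRNA fills nearly all of that gap. It had 126 and 89 counts in the controls and 45 and 71 in the livers labelled HuR hKO, or 9.48 and 6.64 against 3.14 and 3.77 CPM (log2 -1.21 ± 0.26, SE; adjusted p = 0.25 in edgeR's quasi-likelihood test). Its groups did not overlap, and its log2 fold change ran from -1.45 to -0.95 when single mice were left out. The direction was that of C730036E19Rik, whose log2 fold change was -1.79. The next genes out, Hmcn1 at 144.6 kb and Gm10138 at 197.3 kb, were at 0.79 and 0.45. Whether reads run from one into the other was not tested.

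The one neighbour that was higher was Cdkn1a, the cell cycle inhibitor p21, 83.0 kb from Stk38. It had 5.49 and 5.75 CPM in the controls and 9.91 and 13.9 CPM in the livers labelled HuR hKO (log2 1.08 ± 0.22, SE; adjusted p = 0.207 in edgeR's quasi-likelihood test), and without mouse 4 it missed the threshold at 0.82. Genes nearer to Stk38 had smaller changes, short of the threshold. Kctd20, 1.33 kb away, was at 0.18 and higher in both livers labelled HuR hKO, and Srsf3, 24.6 kb away, was at -0.05.

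Around Rgs16 the antisense gene Gm28513 shares 240 bases with it and had 8 and 9 counts in the controls and 17 and 14 in the others, too few to be tested. Glul, which encodes glutamine synthetase, lies 154.5 kb away and had 1024 and 1223 CPM in the controls against 1516 and 1734 CPM (log2 0.53 ± 0.17, SE; adjusted p = 0.526 in edgeR's quasi-likelihood test). It passed the threshold only without scaling for library size (0.86). C730036E19Rik and Rgs16, which lay on opposite sides of 0, are 2.598 Mb apart, with 51 genes between them, 19 of them tested. Of these 19, 0 passed the threshold in edgeR, DESeq2 or limma-voom, 1 had an unadjusted p under 0.05 in each, where 7.43%, 4.42% and 7.55% of all tested genes did, and their median log2 fold change was 0.00.

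**Figure D5:**
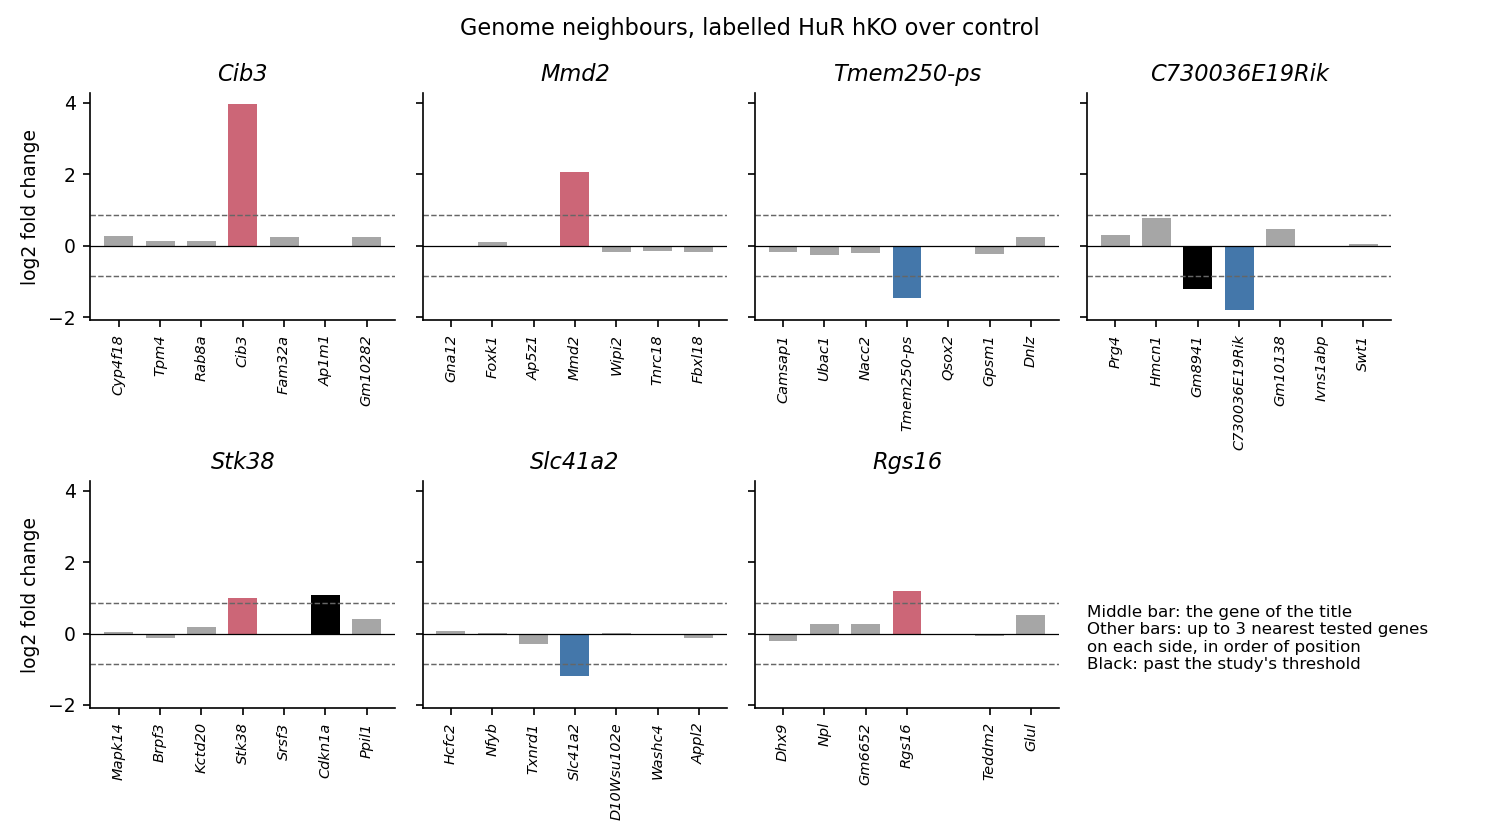
Log2 fold change (libraries labelled HuR hKO over control, vertical axis, the same scale in all panels) of each of the 7 genes (coloured middle bar) and of the nearest tested genes on either side in order of position, with dashed lines at a fold of 1.8 and 1 neighbour of Rgs16 not drawn. Of the 42 neighbours 2 passed the study's threshold (black), Gm8941 at -1.21 beside C730036E19Rik and Cdkn1a at 1.08 near Stk38.

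The genes whose pattern over the 4 livers was most like each of the 7 were found by the root mean square (RMS) difference of log2 CPM, each gene centred on its own mean, among 12955 tested genes with a symbol. With 4 points and a choice made on the same contrast, this describes shapes and nothing more. The log2 CPM hold a prior count of 2, so a gene with few counts can lie near without a like fold change. For Mmd2 the nearest was Slc39a4, a zinc importer, at an RMS difference of 0.05 and with 13.2 and 16.1 CPM in the controls against 60.1 and 58.0 CPM. Tmem265 and Dynlt1a, a dynein light chain, followed at 0.20 and 0.21. Dynlt1a had only 0.151 and 0.373 CPM in the controls and entered the test through the other libraries. For Tmem250-ps it was Hpx, the heme-binding plasma protein hemopexin, at 0.04, with 2253 and 2195 against 917 and 752 CPM, followed by D3Ertd751e at 0.09 and Gm43597 at 0.15.

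For C730036E19Rik the nearest was Slc15a2, a peptide transporter, at 0.04, with 6.92 and 6.27 against 1.88 and 1.96 CPM. Gm43802 at 0.11 and Hpx at 0.20 came next. Gm43802 had only 0.279 and 0.265 CPM in the livers labelled HuR hKO, and its fitted log2 fold change was -2.15 against -1.79 for C730036E19Rik. Stk38 had the closest company, Rpgrip1 and Wdr19, both proteins of cilia, at 0.03 and 0.05 and Serpinb8, a protease inhibitor, at 0.05, with 13 genes within an RMS difference of 0.1. Slc41a2 was matched by Gm17259, Gm6710 and Gm43597 at 0.07, 0.08 and 0.09. Rgs16 was matched by Clec11a, a secreted growth factor, the glucose transporter Slc2a4 and 2310005A03Rik at 0.09, 0.10 and 0.11. The last had only 0.226 and 0.224 CPM in the controls and entered the test through the other libraries (0.767 and 0.956 CPM). Its fitted log2 fold change was 1.91 against 1.20 for Rgs16, so its small RMS difference does not describe a like fold.

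For Cib3 the nearest was Gm20708 at 0.098, the only gene within 0.1. That gene and the next 2, Zbtb9 and Gm21541 at 0.22 and 0.38, had 0 counts in both controls and between 0.977 and 2.09 CPM in the livers labelled HuR hKO. They entered the test only through those livers, and their fitted log2 fold changes were 7.67, 7.41 and 7.57 against 3.98 for Cib3. Their control values here are the prior count alone, so the small RMS differences do not describe a like fold. Among the 7 themselves, Stk38 and Rgs16 were nearest to each other at 0.14, and Tmem250-ps was at 0.18 from both C730036E19Rik and Slc41a2.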

How the data were processed

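Per the labels, total liver RNA of 4 mice was sequenced with libraries made by Genewiz, and the submitters' processing notes name RSEM and GRCm38 without their roles, so the counts may be rounded estimates. The authors deposited whole-number, unscaled counts per Ensembl gene, and 0 columns of their table lacked a mouse. CPM are these counts per 1000000, on library sizes scaled by TMM factors. The aligner, annotation and use of strand are not given in the sources used here, so counts of overlapping genes and copies are uncertain.

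Of 46603 identifiers, 46005 had a symbol and 46091 were in GENCODE M21 (GRCm38), which gave coordinates, exon lengths and 3′ UTRs. RefSeq promoters (GRCm38.p6) were matched for all 7 genes. Counts were filtered with edgeR's defaults (10 counts, total 15) and compared in edgeR 4.0.16 (R 4.3.3) with the quasi-likelihood test and Benjamini-Hochberg adjustment over 13001 genes, with 2 residual degrees of freedom. Nothing says whether the mice were raised or processed together, so p-values measure only the spread between these mice. Each SE is the absolute log2 fold change divided by the square root of the F statistic of the quasi-likelihood test. Intervals and floors (3 counts) cover counting error only. Shared sequence was sought with blastn 2.17.0. The fit was checked for the recovery of planted fold changes in counts simulated with its own dispersions, and false calls were not checked.

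The 7 genes, the lists and the tests were chosen with earlier results of these data known. Genes named are the 7, their closest paralogs, list genes past the study's threshold, the 3 genes nearest in pattern and Elavl1. All neighbours were counted, but those named in the text are the ones past the threshold, overlapping or chosen after their values were seen. A few others (Hippo, G protein, magnesium, clock, carbohydrate, PAQR and neighbour genes short of the threshold, and Ptgr2) were chosen after their values were seen. Alternatives were DESeq2 1.42.0, limma-voom (limma 3.58.1), other scalings, filters and prior counts, GC and length offsets, and leaving out each mouse. Tables and figures used python 3.11.15, pandas 2.3.3, numpy 2.4.6, scipy 1.17.1 and matplotlib 3.10.9. Protein sequences were not used here, and 1 neighbour is not drawn or described here.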

Additional observations from a re-analysis of the deposited data

How the results depend on the processing

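All 7 genes kept their direction under every alternative run, with log2 fold changes from 3.03 to 4.30 for Cib3, 1.85 to 2.38 for Mmd2, 0.97 to 1.30 for Stk38, 1.10 to 1.53 for Rgs16, -1.61 to -1.17 for Tmem250-ps, -1.88 to -1.47 for C730036E19Rik and -1.28 to -0.88 for Slc41a2. The contrast chose these 7 genes and their groups did not overlap, so the direction was all but fixed in advance and nothing is read from it. Cib3 had no value with at least 10 counts in every library. Without scaling for library size the median of all genes moved to 0.31, the genes past the study's threshold to 510 higher and 61 lower, the genes with an adjusted p under 0.05 to 155 and the neighbours past the threshold to 4. Without a filter on low counts there were 262 higher, 264 lower and 161 with an adjusted p under 0.05. The count of adjusted p under 0.05 was 8 in the robust fit and 85 in DESeq2 against 3. Leaving out single mice, with the lone mouse of a group assumed to vary like the other group, gave 127 to 265 higher, 133 to 181 lower, 0 to 45 with an adjusted p under 0.05 (0 without mouse 3, where 820 had an unadjusted p under 0.05, and 14, 45 and 7 without mice 1, 2 and 4), 10 to 18 relatives and 1 to 2 neighbours, mouse 2 giving 265, 181 and 18 and mouse 4 the 1. Cib1, Cib2, Stk38l, Slc41a1, Rgs2, Rgs3, Gnaq and Srsf3 changed sign without one mouse or another, Mmd, Stk38l, Amotl2, Rgs2 and Srsf3 without scaling, and Srsf3 with the offsets for GC content and length. The causes were not tested. Ordered by Pearson's r, the 3 genes most like each shared 1 with the order by RMS difference for Stk38 and Rgs16 and 0 for the other 5, and between 68 and 117 genes had r over 0.99. No paired analysis was possible because the groups share no replicate number. Depth limits Cib3 most, with 4 counts in each control.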
